A study of Mus musculus with 20 samples.

Results

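Spermatocytes in the later part of pachynema and in diplonema were set against spermatocytes in the early and middle parts of pachynema, to ask which transcripts differ between them. The later arrays were the single late-pachytene array and the 2 diplotene arrays, and the earlier arrays were the single early-pachytene array and the 2 mid-pachytene arrays, so that 6 of the 20 arrays of the series were used. Early-pachytene and late-pachytene cells have 1 array each, which is why neighboring fractions were put together as 3 against 3. All cells came from testes of male C57BL/6 x DBA/2J F1 mice, labeled as 10 to 16 weeks old, with no genetic change or treatment in any group. They were sorted by fluorescence on the DNA dye Hoechst, and each array held RNA pooled from several sorts, so that an array is not 1 animal. Values are GC-RMA signals of the Affymetrix MOE430 version 2 array on the log2 scale, where a difference of 1 is a 2-fold difference in signal. Of 45037 probe sets, 18649 (41.4%) reached log2 5 in 2 or more of the 6 arrays and were tested, and 16583 of these belonged to 1 gene, for 10472 genes in all.

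At pachynema the homologous chromosomes are fully synapsed along the synaptonemal complex, breaks in the DNA are repaired and some are resolved as crossovers, while the unsynapsed X and Y chromosomes are silenced in the sex body. At diplonema the complex disassembles and the homologs stay joined at the crossovers until the first division. Spermatocytes also make many transcripts that are used only later, for the flagellum and acrosome of the spermatid.

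The sorted cells carried the transcripts of spermatocytes. Of 13 tested marker genes of pachytene and diplotene spermatocytes, 1 was called higher and 1 lower in the later arrays, and their summed linear signal was 112397 to 133591 in the later arrays, against 61843 to 111300 in the earlier arrays. Hspa2, the testis HSP70 chaperone of spermatocytes, had log2 values of 13.80, 13.96 and 14.07 in the later arrays, against 13.15, 13.62 and 13.97 in the earlier arrays. Sycp3, of the axial elements, had 13.91, 13.47 and 13.27 in the later arrays, against 13.10, 13.63 and 13.56 in the earlier arrays. Throughout, the 3 later values are those of late-pachytene, diplotene replicate 1 and diplotene replicate 2, and the 3 earlier values those of early-pachytene, mid-pachytene replicate 1 and mid-pachytene replicate 2. All 11 measured markers of macrophages and leukocytes and both of red blood cells were below the filter, and of 13 measured Sertoli cell markers 7 were tested and 0 were called by limma. The Sertoli cell markers summed to a signal of 1331, 7509 and 1900 in the later arrays, against 9263, 8598 and 3418 in the earlier arrays, so they were present and uneven, with overlap. Markers of other stages did differ. The 15 measured markers of spermatogonia summed to a signal of 4064 to 7227 in the later arrays, against 18679 to 21123 in the earlier arrays, with Egr4 the one below the filter. The 15 markers of round and elongating spermatids summed to 17151 to 38445 in the later arrays, against 64828 to 72545 in the earlier arrays. The median of this sum was 131580 in spermatogonia and 140073 in round spermatids, so it is not particular to spermatids. The 14 measured markers of leptotene-zygotene cells summed to 18750 to 24390 in the later arrays, against 25007 to 29045 in the earlier arrays, with 5 of 13 tested lower, and the 6 of Leydig cells to 53.94 to 144 in the later arrays, against 152 to 242 in the earlier arrays, with 5 below the filter. Peritubular and endothelial markers summed to 388.3 to 442 in the later arrays, against 640 to 2045 in the earlier arrays, with 7 of 11 below the filter. In pooled sorted cells, fewer cells of a type and less RNA per cell cannot be told apart, and the part of these markers in the differences that follow was not tested.

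In the later arrays 1485 probe sets (7.96% of those tested) were called higher and 2284 (12.2%) lower than in the earlier arrays, 20.2% together (limma, Benjamini-Hochberg adjusted p under 0.05). By gene these were 1117 genes higher and 1645 lower, with 1 gene in both through different probe sets. Called probe sets had a median difference of 1.65 where higher and of -2.31 where lower, and the median over all 18649 was 0.07. In all 3769 of them the 3 arrays of one side lay outside the range of the other 3, which was also so for 22.4% of all tested probe sets in the higher and 21.1% in the lower direction. The number of calls rests on single arrays. Without diplotene replicate 1 none passed, with a smallest adjusted p of 0.0514 from limma and 4992 probe sets at an unadjusted p under 0.05, against 6967 with all arrays. Without early-pachytene replicate 1 there were 1610 calls, without mid-pachytene replicate 1 there were 1240, and without diplotene replicate 2 there were 2455. Mid-pachytene and diplotene arrays of equal number belonged to the same array project, and with that pairing as a block the 4 arrays gave 7999 calls for diplotene minus mid-pachytene, 3667 higher (19.7%) and 4332 lower (23.2%). By gene, with 1 probe set each, this paired fit called 20.3% higher and 25.1% lower. It leaves out the early- and late-pachytene arrays, so it is another contrast and not a stronger form of the 3-against-3 test. With only 4 arrays very few residual degrees of freedom remain. The paired adjusted p values given below therefore lean heavily on the spread that limma shares across probe sets.

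**Figure D1:**
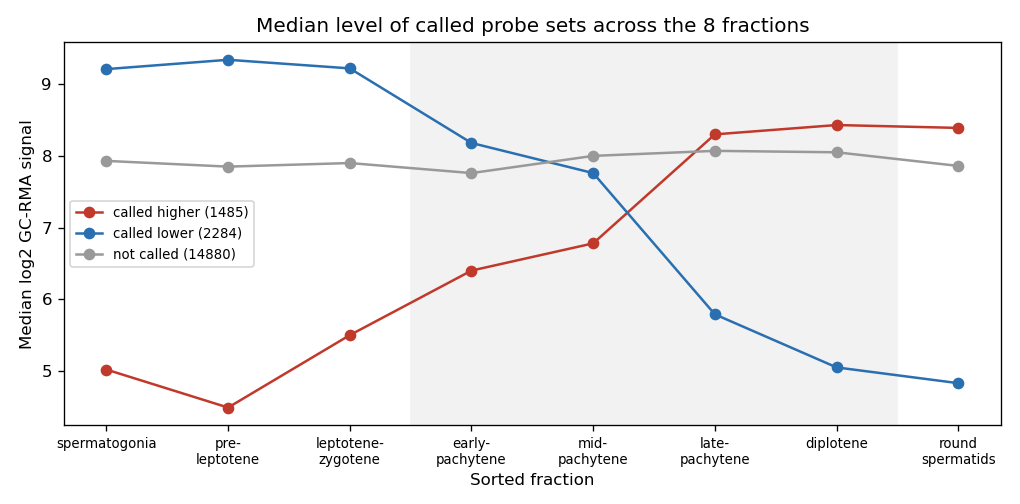
Median log2 GC-RMA signal (vertical axis) of the probe sets called higher, called lower and not called between the later and the earlier arrays (lines, with their number) in the 8 sorted fractions (horizontal axis), with the 4 compared fractions shaded. Probe sets called lower have a median of 7.76 in mid-pachytene and 5.79 in late-pachytene cells, and probe sets called higher of 6.78 and 8.30.

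Across the 4 fractions in their order, early-pachytene, mid-pachytene, late-pachytene and diplotene, the probe sets called higher had median log2 signals of 6.40, 6.78, 8.30 and 8.43, and those called lower of 8.18, 7.76, 5.79 and 5.05. Both sets were chosen by this contrast, so that these medians describe it and do not test it. In leptotene-zygotene cells, whose arrays took no part in the choice, the probe sets called higher had a median of 5.50 and those called lower of 9.22, and in round spermatids 8.39 and 4.83. Of the 1485 called higher, 697 (46.9%) had a still higher mean in round spermatids than in the later arrays, and of the 2284 called lower, 1489 (65.2%) had a still lower one. Among all tested autosomal probe sets of a single gene, called or not, 38.2% had a higher mean in round spermatids. A lower mean there was thus the more frequent case without regard to calls, and the 65.2% is not particular to the falls. In a fit of all 8 fractions over 20 arrays, 494 of the tested probe sets (2.65%) were called between mid-pachytene and early-pachytene, 1127 (6.04%) between late-pachytene and mid-pachytene and 4367 (23.4%) between diplotene and mid-pachytene. Between diplotene and late-pachytene 3 were called (0.0161%). These were Gria4, a glutamate receptor gene, Lpo, which encodes lactoperoxidase, and Lrat, which encodes the enzyme that esterifies retinol, named for being so few. Gria4 had 5.51 and 5.65 in diplotene arrays, against 2.62 in late-pachytene (difference 2.95, adjusted p = 0.00743 from limma). Lpo had 5.92 and 5.66 in diplotene arrays, against 3.12 in late-pachytene (2.67, adjusted p = 0.0306). Lrat had 4.09 and 4.52 in diplotene arrays, against 6.79 in late-pachytene (-2.48, adjusted p = 0.0368). At an unadjusted p under 0.05 this step had 1517 probe sets, and with only 1 late-pachytene array its spread was taken from the other fractions.

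The largest rises were of genes that were near background in the earlier arrays. Smyd1, known as a histone methyltransferase of muscle, had 6.80, 6.63 and 6.37 in the later arrays, against 2.99, 2.95 and 3.36 in the earlier arrays, a rise of 3.50 (SE 0.30, adjusted p = 0.0106 from limma, n = 3 each, as in all comparisons of these arrays). Prdm8, of the PRDM family of zinc finger proteins, had 6.57, 7.33 and 6.64 in the later arrays, against 3.66, 3.58 and 3.51 in the earlier arrays, a rise of 3.27 (SE 0.32, adjusted p = 0.0106). Gpd2, the mitochondrial glycerol-3-phosphate dehydrogenase, had 6.60, 6.47 and 6.56 in the later arrays, against 3.13, 3.35 and 2.98 in the earlier arrays, while the most abundant of its 3 tested probe sets had a difference of -0.42 and was not called. The arrays of the 2 sides were far apart for these genes and close within each side. With log2 values under 5 raised to 5 the same rises were 1.60 for Smyd1, 1.85 for Prdm8 and 1.55 for Gpd2, since the earlier values lie where the array measures little. Bex6 rose most, by 3.72, followed by the uncharacterized 4931431C16Rik by 3.66, Rnf144b, a ubiquitin ligase, by 3.64, 4930505M18Rik by 3.54, 4933417E11Rik by 3.52, Gm20740 by 3.45, Lhx9, a LIM homeobox gene of the gonad, by 3.38, Trim14 by 3.37, the serotonin receptor Htr5b and Mirg, a noncoding RNA of an imprinted region that hosts microRNAs, by 3.30 each, Trpv1, the capsaicin receptor, by 3.29, and Ndufa4l2, a relative of a respiratory chain subunit, by 3.21. With the floor at 5, the rises of 4931431C16Rik, 4930505M18Rik and Trpv1 did not pass the test (adjusted p = 0.103, 0.153 and 0.142 from limma). The calls for these genes, and for every gene named from here on, were lost without diplotene replicate 1.

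Of the 15 largest falls, those of Cenpa, Mcm2 and Tsc22d3 kept a mean above log2 5 in the later arrays and the others did not. Cetn2, the X-linked gene of centrin 2, a calcium-binding protein of the centriole, had 3.79, 3.45 and 2.87 in the later arrays, against 8.74, 8.07 and 7.54 in the earlier arrays, a fall of 4.75 on the log2 scale (SE 0.42, adjusted p = 0.0106). Its second probe set fell by 3.24. Cenpa, which encodes the histone H3 variant of the centromere, had 8.36, 6.69 and 3.93 in the later arrays, against 12.21, 10.80 and 9.74 in the earlier arrays, a fall of 4.59 (SE 1.13, adjusted p = 0.0321). It was lower at each successive fraction, and the arrays of the 2 sides do not overlap. Erap1, an aminopeptidase that trims antigenic peptides, fell by 4.62, Pramel13 and Trnp1 by 4.57 each, Sohlh1, a transcription factor of spermatogonia, by 4.53, Prss50, a testis protease, by 4.52, Mcm2, of the replicative helicase, by 4.45, the lysosomal protease Ctsa by 4.43, Patz1 by 4.37, Arrb2, an arrestin, by 4.34, the tetraspanin Cd9 by 4.32 and Sema4d, a semaphorin, by 4.31. Tsc22d3 and Dusp9, the other X-linked genes among the 15 largest falls, fell by 4.36 and 4.35. With the floor at 5 the falls of these genes were 2.46 to 4.23 on the log2 scale, and all passed the test.

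**Figure D2:**
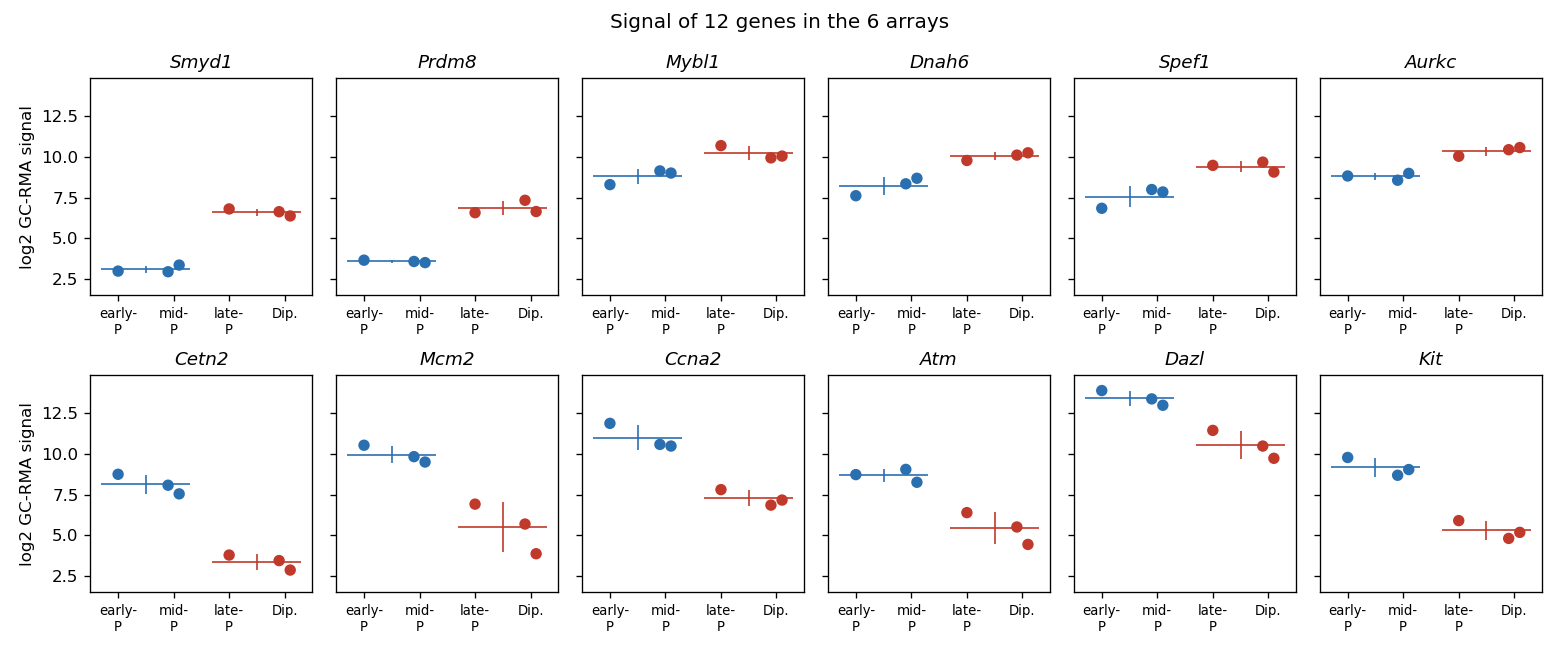
Log2 GC-RMA signal (vertical axes) of 12 genes in the early-pachytene, mid-pachytene, late-pachytene and diplotene arrays (horizontal axes, 1, 2, 1 and 2 points). Horizontal lines are the means and vertical lines the SD of the 3 later arrays (red) and of the 3 earlier arrays (blue); the upper row shows called rises such as Smyd1 (6.60 against 3.10) and the lower row called falls such as Cetn2 (3.37 against 8.12).

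On chromosome X, 210 of 359 tested probe sets of a single gene (58.5%) were lower in the later arrays and 0 were higher, by limma, with 0 of them higher at an unadjusted p under 0.05. On the autosomes 7.99% were higher and 11.5% lower, and on no autosome did the share of falls pass 13.5%. The median difference was -2.27 for X-linked and 0.11 for autosomal probe sets. Over the X-linked probe sets the median log2 signal was 5.08, 5.54 and 4.35 in the later arrays, against 7.44, 7.30 and 6.31 in the earlier arrays, a difference of -2.02 between means of 4.99 ± 0.60 and 7.02 ± 0.62 (SD, n = 3 each; exact permutation test, two-sided p = 0.1, the smallest that 3 against 3 allows). Over the autosomal ones it was 7.88 to 7.98 in the later arrays, against 7.85 to 8.04 in the earlier arrays. The X-linked medians of the 2 sides did not overlap and the autosomal ones did. The lower level in the later arrays was present within both array projects that held a diplotene and a mid-pachytene array, with a median difference of -2.13 in one and -1.94 in the other, where the autosomes had 0.10 and -0.02. In the later arrays 178 of the 359 had a mean under 5, against 22 in the earlier arrays, so the size of the fall is compressed, and with values under 5 raised to 5 the median difference was -1.43.

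**Figure D3:**
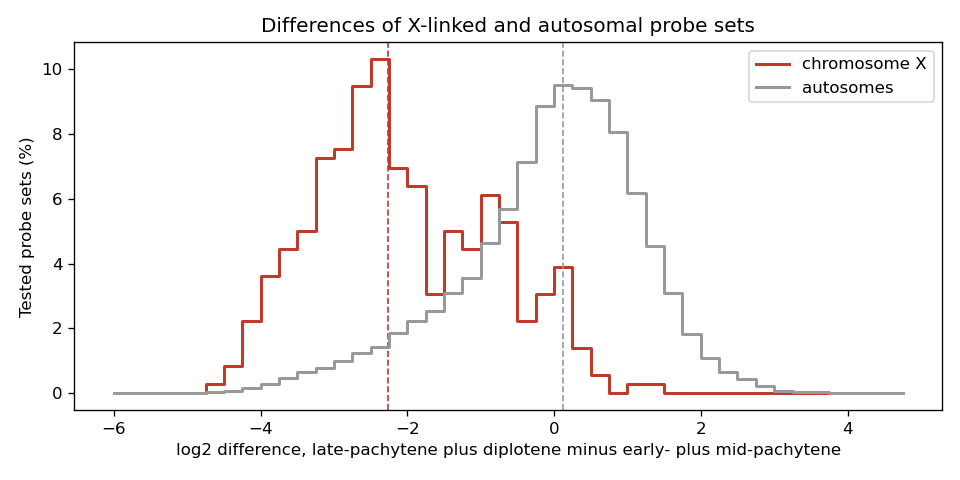
Share of tested probe sets (vertical axis, %) by their log2 difference, late-pachytene plus diplotene minus early- plus mid-pachytene (horizontal axis, bins of 0.25), for chromosome X (red) and the autosomes (gray); dashed lines are the medians, -2.27 and 0.11.

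**Figure D4:**
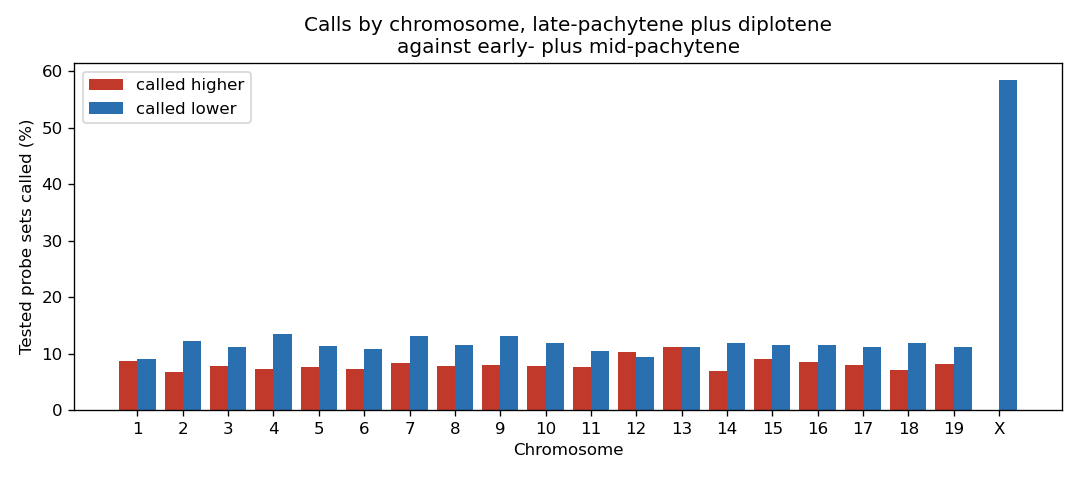
Share of tested probe sets of a single gene (vertical axis, %) called higher (red) and lower (blue) in the later than in the earlier arrays, by chromosome (horizontal axis). On chromosome X 58.5% are called lower and 0% higher.

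After Cetn2, Tsc22d3 and Dusp9, the X-linked genes with the largest falls were Map7d2, a microtubule-associated protein gene, by 4.25, and Scml2, a Polycomb-group gene of the germline, by 4.25. Of 15 tested X-linked housekeeping genes that have an autosomal retrogene, 12 fell and 0 rose, with a median difference of -2.60. Phka1, a phosphorylase kinase subunit whose fall did not pass with values under 5 raised to 5 (adjusted p = 0.0925 from limma), had 2.45, 2.02 and 1.94 in the later arrays, against 6.94, 6.24 and 5.33 in the earlier arrays. Hprt, of purine salvage, had 6.53, 6.42 and 4.54 in the later arrays, against 10.18, 9.21 and 8.84 in the earlier arrays. Pgk1, the glycolytic phosphoglycerate kinase, had 5.67, 7.03 and 7.01 in the later arrays, against 8.07, 7.84 and 6.75 in the earlier arrays, with overlap, and was not called (-0.98, adjusted p = 0.216 from limma). Of the 11 tested autosomal retrogenes of such genes, 2 rose and 0 fell, with a median of 0.48. Prps1l1, a phosphoribosyl pyrophosphate synthetase, had 13.17, 13.21 and 13.41 in the later arrays, against 12.36, 12.18 and 12.23 in the earlier arrays, a rise of 1.01 (adjusted p = 0.0418), and Utp14b, of ribosome assembly, rose by 1.20 (adjusted p = 0.0496). Pgk2 had 11.06, 12.05 and 12.89 in the later arrays, against 12.37, 10.99 and 11.80 in the earlier arrays, with overlap (adjusted p = 0.755 from limma, and 0.0177 with arrays paired by project). Prdx4, an X-linked peroxiredoxin gene, stayed well above background, with 8.63, 9.23 and 8.88 in the later arrays, against 13.03, 11.28 and 11.33 in the earlier arrays, a fall of 2.97. Akap4, the X-linked scaffold of the fibrous sheath, had 8.89, 10.41 and 10.07 in the later arrays, against 10.78, 11.14 and 10.98 in the earlier arrays, which do not overlap but were not called (-1.18, adjusted p = 0.098 from limma, and 0.0375 when paired).

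Between late-pachytene and diplotene cells, 144 of the 359 X-linked probe sets (40.1%) had a higher mean in diplotene cells, as had 42.8% of the autosomal ones, and in 89 of the X-linked ones both diplotene arrays lay above the late-pachytene array. In the fit of 8 fractions 0 X-linked probe sets were called at this step by limma, and 49 had an unadjusted p under 0.05. With mid-pachytene and diplotene arrays paired by project, 10 of the 359 X-linked probe sets (2.79%) were called higher in diplotene than in mid-pachytene cells and 253 (70.5%) lower, where 19.7% and 23.2% of all tested probe sets were. One of them belonged to Mtm1, a phosphoinositide phosphatase gene, with 8.09 and 11.55 in diplotene arrays, against 7.15 and 10.45 in mid-pachytene arrays, 6.16 in early-pachytene and 7.57 in late-pachytene (paired difference 1.02). Samt2b, of the spermatogenesis-associated multipass transmembrane family, had 6.36 and 7.15 in diplotene arrays, against 4.72 and 6.35 in mid-pachytene arrays, 6.13 in early-pachytene and 4.79 in late-pachytene (1.21). The others were 4933428M09Rik, 4933436I01Rik, 3830417A13Rik, Igbp1, Fthl17a, Fam47c, Cldn34c4 and Fam122c, all with both diplotene arrays above the late-pachytene array. Most of these others were near the filter level of log2 5, with means in the later arrays from 4.80 (Fthl17a) to 6.59 (Fam122c). With values under 5 raised to 5, their differences between the 3 later and 3 earlier arrays were -0.13 to 0.69. They were named after their values were seen. In round spermatids 62.1% of the 359 had a higher mean than in the later arrays, as had 38.2% of the autosomal probe sets.

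Several genes of DNA replication fell. With 1 probe set for each gene, 8.24% of 10472 genes were higher and 13.8% lower in the later arrays. Of 31 tested replication genes 11 (35.5%) fell and 0 rose by limma, with a median of -0.57, where the median over all genes was 0.05. Mcm2 had 6.91, 5.69 and 3.87 in the later arrays, against 10.52, 9.82 and 9.49 in the earlier arrays (fall of 4.45, SE 0.75, adjusted p = 0.0126). Cdt1, which loads the helicase at origins, had 8.36, 7.54 and 5.08 in the later arrays, against 11.78, 11.43 and 10.23 in the earlier arrays (fall of 4.15, SE 0.86, adjusted p = 0.0194). Orc1, of the origin recognition complex, fell by 3.76, Mcm4 by 3.80, Mcm8, of a related helicase that acts in recombination, by 3.21, Mcm5 by 2.58, Mcm3 by 2.47, Pold1, of polymerase delta, by 2.29, Mcm6 by 1.89, Rfc5 by 1.55 and Pole by 1.05. Pcna, the sliding clamp, had 13.11, 12.96 and 13.37 in the later arrays, against 13.17, 13.01 and 13.60 in the earlier arrays, and Rrm1, of ribonucleotide reductase, had 11.10, 11.15 and 11.01 in the later arrays, against 11.05, 10.84 and 10.53 in the earlier arrays. The summed signal of the spermatogonia markers given above was also lower in the later arrays. Within the later arrays that sum was lowest in diplotene replicate 1, and Mcm2 and Cdt1 were lowest in diplotene replicate 2. The relation between the sum and these falls was not tested.

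E2F factors are known to drive replication genes through a motif near the start site, so RefSeq promoter windows (build GRCm38.p6, 250 bases before to 50 bases after the start) were searched on both strands for the letters TTTGGCGC, TTTCCCGC, TTTCGCGC and TTTGCCGC. Of the 9 replication genes that fell and have a window in the table, 7 held at least 1 match, as did 3 of the 16 that were not called, 427 of 8603 tested genes with a window (4.96%) and 2.6% of all 27025 genes of the table. Over all genes with a window, a match was in 70 of 1200 that fell (5.83%) and 26 of 697 that rose (3.73%), so the falls as a whole were near the share of tested genes. The matches in capitals of 3 promoters are shown because they lie in different places and show how matches on the 2 strands can overlap.
Orc1, chr4:108579204-108579503, + strand: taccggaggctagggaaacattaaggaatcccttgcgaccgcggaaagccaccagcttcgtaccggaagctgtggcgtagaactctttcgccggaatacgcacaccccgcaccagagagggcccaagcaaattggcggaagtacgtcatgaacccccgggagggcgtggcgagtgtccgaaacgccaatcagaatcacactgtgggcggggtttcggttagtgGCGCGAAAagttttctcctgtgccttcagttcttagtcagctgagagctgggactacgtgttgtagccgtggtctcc
Mcm5, chr8:75109259-75109558, + strand: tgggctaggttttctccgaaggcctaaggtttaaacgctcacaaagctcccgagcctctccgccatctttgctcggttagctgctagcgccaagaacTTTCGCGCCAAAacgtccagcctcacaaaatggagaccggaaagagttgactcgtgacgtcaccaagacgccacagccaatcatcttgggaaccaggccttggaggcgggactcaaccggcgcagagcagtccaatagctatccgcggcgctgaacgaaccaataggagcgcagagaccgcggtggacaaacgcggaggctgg
Mcm6, chr1:128359656-128359955, - strand: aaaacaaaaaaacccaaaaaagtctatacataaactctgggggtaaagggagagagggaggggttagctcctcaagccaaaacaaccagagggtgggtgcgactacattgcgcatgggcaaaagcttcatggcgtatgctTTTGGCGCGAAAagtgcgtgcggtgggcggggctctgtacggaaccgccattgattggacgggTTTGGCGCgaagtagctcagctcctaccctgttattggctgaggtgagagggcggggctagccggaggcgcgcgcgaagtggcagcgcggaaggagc
In Orc1 the match begins 27 bases before the start. In Mcm5 matches on opposite strands begin 153 and 149 bases before it and share 4 letters, and Mcm6 has such a pair at 110 and 106 bases and another match at 47 bases. Mcm2 and Rfc5, which also fell, have none of these letters in their windows, and the matches describe sequence only. The MYB letters TAACNG and CAACNG, searched in the same way, were in 57.5% of windows of genes that rose, 44.3% of those that fell and 52.2% of all tested genes with a window. The other motifs searched were the cyclic AMP element (TGACGTCA), the RFX motif (GTTGCCA), the CCAAT box and the TATA box (TATAAA). They were in 3.44%, 5.74%, 41.9% and 11.3% of the windows of genes that rose and 3.08%, 4.08%, 41.5% and 8.5% of those that fell. Among all tested genes the shares were 3.84%, 5.44%, 43.4% and 8.19%.

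Over the following 4 lists of cell cycle genes 12 of 81 (14.8%) fell and 1 (1.23%) rose, a share of falls near the 13.8% of all genes. Of 27 tested kinases, cyclins and CDC25 phosphatases, 6 fell and 1 rose. Ccna2, cyclin A2, had 7.80, 6.85 and 7.16 in the later arrays, against 11.86, 10.57 and 10.47 in the earlier arrays, a fall of 3.70 (SE 0.47, adjusted p = 0.0106). Ccnd1 and Ccnd2, D-type cyclins, fell by 2.87 and 2.40, Fbxo5, the inhibitor of the anaphase-promoting complex known as EMI1, by 2.23, Cks1b by 2.14 and Cdc25c, a phosphatase that activates CDK1, by 1.50. Aurkc, the Aurora kinase of germ cells, had 10.03, 10.43 and 10.56 in the later arrays, against 8.82, 8.56 and 8.98 in the earlier arrays, a rise of 1.55 (SE 0.30, adjusted p = 0.0173). Cdk1, the kinase of the division itself, had 9.80, 10.25 and 11.27 in the later arrays, against 11.05, 9.82 and 10.41 in the earlier arrays, and Ccnb2, a cyclin B, had 11.45, 11.69 and 12.67 in the later arrays, against 11.77, 11.21 and 12.28 in the earlier arrays. Of 29 tested kinetochore and checkpoint genes 3 fell and 0 rose, namely Cenpa, the X-linked Cenpi by 3.06 and Mad2l1, of the spindle checkpoint, by 1.37. Of 17 genes of the anaphase-promoting complex 3 fell and 0 rose, with Anapc5 at -1.84, Anapc1 at -1.70 and Anapc4 at -1.47. Anapc1 has 3 tested probe sets, of which 1 was called and 1 had a difference of 0.39. None of 8 condensin genes was called.

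Genes of recombination and of the chromosome axis were mixed, and most of their shares of falls were near the 13.8% of all genes. These shares were 14.3% for the synaptonemal complex and axis and 11.1% for break formation and strand exchange. They were 18.8% for crossover and mismatch repair and 17.4% for damage signaling and meiotic silencing. Cohesin genes had 33.3%. Among 14 genes of the synaptonemal complex and axis, 2 fell and 0 rose, Trip13, an ATPase that removes HORMA proteins from the axis, by 1.91 and Syce2, of the central element, by 1.65. Sycp1, of the transverse filaments, had 12.06, 11.33 and 11.00 in the later arrays, against 11.91, 12.06 and 12.51 in the earlier arrays, with overlap (-0.70, adjusted p = 0.223 from limma, and 0.0316 when paired). Of 12 cohesin genes 4 fell, and all 4 are genes that mitotic cells use. Rad21 averaged 8.30 ± 0.72 in the later arrays and 10.97 ± 0.32 in the earlier arrays (SD, n = 3 each), with no overlap, a fall of 2.67 (SE 0.43, adjusted p = 0.0121), with 1 of its 3 probe sets called, Smc3 fell by 1.90, and the X-linked Smc1a and Stag2 fell by 2.37 and 2.20. Other cohesin genes that mitotic cells use were not called by their list probe set, with Pds5b at -0.64, Pds5a at -0.46, Stag1 at -0.16, Wapl at 0.02 and Nipbl at 0.81. For Nipbl, 2 of 5 tested probe sets were called higher. The meiotic forms were not called, with Rec8 at -0.89 and overlap. Stag3 had 12.71, 12.66 and 12.88 in the later arrays, against 11.73, 12.22 and 12.75 in the earlier arrays, and Smc1b had 11.07, 11.07 and 10.66 in the later arrays, against 11.15, 11.33 and 11.01 in the earlier arrays. Of 18 genes of break formation and strand exchange 2 fell, Rec114, needed for breaks, by 2.73 and Rpa2, of the protein that coats single strands, by 2.28, and for each of them the gene's other probe set was not called. Spo11, which makes the breaks, had 11.16, 11.18 and 12.88 in the later arrays, against 9.98, 10.68 and 12.64 in the earlier arrays, with overlap. Of 16 genes of crossover and mismatch repair 3 fell and 2 rose. The X-linked Tex11, of the meiotic crossover pathway, fell by 3.37, and Pms1 and Pms2, of mismatch repair, fell by 3.06 and 2.71. Mus81, a nuclease that resolves joint molecules, had 7.73, 8.18 and 8.08 in the later arrays, against 6.72, 6.68 and 6.47 in the earlier arrays (rise of 1.37, adjusted p = 0.0207), and Msh3 rose by 1.44. Of 23 genes of damage signaling and meiotic silencing 4 fell and 0 rose. Atm, a damage kinase, had 6.39, 5.51 and 4.44 in the later arrays, against 8.72, 9.04 and 8.25 in the earlier arrays (fall of 3.22, SE 0.53, adjusted p = 0.0122). Brca1 fell by 2.58 with 1 of its 2 probe sets called, Chek1 by 1.77, and Scml2 is given above. H2ax, the histone that is phosphorylated in the sex body, had 11.06, 10.64 and 10.23 in the later arrays, against 9.80, 10.63 and 11.04 in the earlier arrays.

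**Figure D5:**
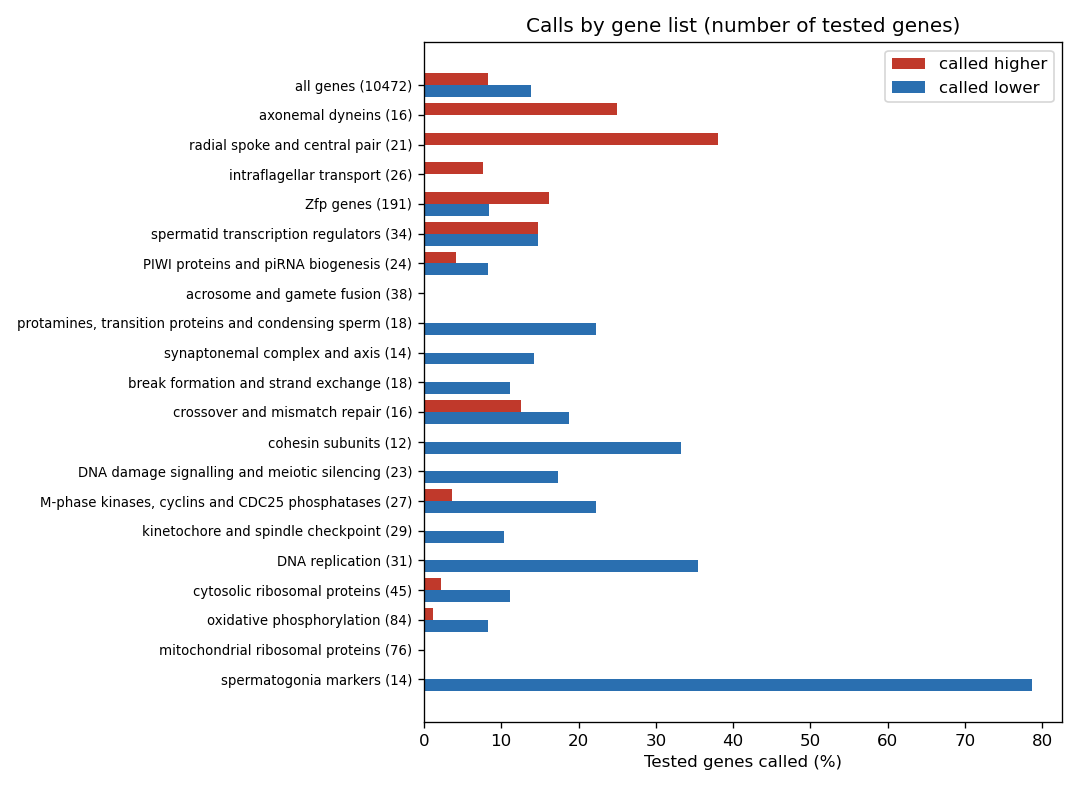
Share of tested genes (horizontal axis, %) called higher (red) and lower (blue) in the later than in the earlier arrays, for all genes and 20 gene lists (vertical axis, with the number of tested genes, 1 probe set each). Radial spoke and central pair genes have 38.1% higher and 0% lower, and DNA replication genes 0% higher and 35.5% lower.

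Calls among genes of axonemal dyneins, radial spokes and the central pair were rises, while tubulins had falls. Of 16 tested axonemal dynein and assembly genes 4 (25%) rose and 0 fell (median 1.28). Of 21 radial spoke and central pair genes 8 (38.1%) rose and 0 fell (median 1.15), where 8.24% of all genes rose. Dnah6, a dynein heavy chain, had 9.77, 10.10 and 10.24 in the later arrays, against 7.61, 8.34 and 8.68 in the earlier arrays, a rise of 1.83 (SE 0.37, adjusted p = 0.0186). Dnah12 rose by 1.77, Lrrc6, needed for dynein assembly, by 1.45 and the light chain gene Dnali1 by 1.44. Spef1, of the central pair, had 9.47, 9.67 and 9.06 in the later arrays, against 6.84, 7.99 and 7.84 in the earlier arrays, a rise of 1.84 (SE 0.40, adjusted p = 0.0225). Rsph6a, of the radial spoke head, rose by 1.52, Cfap221, Cfap70 and Spag16 by 1.47, 1.44 and 1.34, Spag6l by 1.17, Rsph14 by 1.09 and Nme5 by 1.00. In these 2 lists 15 of 16 and 19 of 21 genes had a difference above 0. Hydin, of the central pair, had 9.35, 9.72 and 9.93 in the later arrays, against 6.96, 8.43 and 8.96 in the earlier arrays, which do not overlap but were not called (1.55, adjusted p = 0.0791 from limma, and 0.0179 when paired). With arrays paired by project 10 of the 16 and 13 of the 21 were higher and 0 lower, where 20.3% of all genes were higher. Of 8 tested alpha and beta tubulin genes 2 fell and 0 rose, with all 8 below 0, Tubb5 by 3.82 and Tuba4a by 1.39, each with 1 of its 2 probe sets called. Of 26 genes of intraflagellar transport, which builds the axoneme, 2 rose, Kif3b, of the kinesin motor, by 1.40 and Ift52 by 0.93, and 0 fell. Their share of rises, 7.69%, was near the 8.24% of all genes, and in the paired fit 15.4% were higher, against 20.3% of all genes. The median was 0.86, with 25 of 26 above 0. Among 9 centrin and tektin genes Tekt5, of the microtubule doublets, rose by 1.59, with 9.28, 9.71 and 9.88 in the later arrays, against 7.93, 8.19 and 7.99 in the earlier arrays, while Cetn2 fell. Cetn1, the germ cell centrin, had 13.68, 13.90 and 14.13 in the later arrays, against 12.34, 12.74 and 13.25 in the earlier arrays (1.13, adjusted p = 0.0579, and 0.0225 with arrays paired by project), and its other probe set rose by 1.22 (adjusted p = 0.0234). Cetn4 had 13.48, 13.64 and 13.89 in the later arrays, against 12.87, 12.70 and 13.11 in the earlier arrays (0.78, adjusted p = 0.101, and 0.0328 when paired), and its other, dimmer probe set rose by 2.03 (adjusted p = 0.0347). Cetn3 had 12.71, 12.90 and 12.95 in the later arrays, against 11.70, 12.15 and 12.09 in the earlier arrays (0.87, adjusted p = 0.0721, and 0.0384 when paired). Of the 9 genes of this list 8 were higher and 1 lower in the paired fit.

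Of 38 acrosome and gamete fusion genes 0 were called in either direction by limma, with a median of 0.04 and 3 genes whose arrays did not overlap. The paired fit, which also leaves out the early- and late-pachytene arrays, gave another picture. In it 15 of the 38 (39.5%) were higher and 1, Smcp, lower in diplotene than in mid-pachytene arrays, where 20.3% of all genes were higher. Without the pairing the same 4 arrays gave 0 calls over all tested probe sets, so these calls depend on the pairing. What leaving out the early- and late-pachytene arrays added was not tested. Prss21, a sperm serine protease, had 11.87 and 13.14 in diplotene arrays, against 9.52 and 11.64 in mid-pachytene arrays, 11.58 in early-pachytene and 10.63 in late-pachytene (paired difference 1.93, adjusted p = 0.00861 from limma). It was chosen after its values were seen. Of 18 genes of protamines, transition proteins and sperm condensation 4 fell and 0 rose, with a median of -1.23 and 17 of 18 below 0. Prm2, a protamine, had 11.10, 12.44 and 11.91 in the later arrays, against 13.24, 13.85 and 13.38 in the earlier arrays, a fall of 1.68 (SE 0.42, adjusted p = 0.0326). Gapdhs, the sperm glyceraldehyde-3-phosphate dehydrogenase, fell by 1.82, Tnp1, a transition protein, by 1.44 with 1 of its 2 probe sets called (the other at -0.44), and Prm1 by 1.13. The late-pachytene array was the lowest of the 6 for Prm2, Gapdhs and Tnp1. In round spermatids Prm2 averaged 13.92 and Tnp1 14.32, above all 6 arrays. Prm1, Prm2 and Tnp1 are themselves among the spermatid markers summed above, so these falls and that sum are not separate observations. As given above, that sum was nearly as high in spermatogonia as in round spermatids. The part of spermatid content in them was not tested.

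Of 34 regulators of the spermatid program 5 (14.7%) rose and 5 (14.7%) fell, with a median of 0.52 and 22 of 34 above 0. In the paired fit 15 were higher and 6 lower. Mybl1, the MYB factor of pachytene cells, had 9.93 to 10.68 in the later arrays, against 8.29 to 9.13 in the earlier arrays, a rise of 1.41 (SE 0.37, adjusted p = 0.0386). Zfp39 rose by 1.72, Ovol1, a zinc finger repressor, by 1.48, Zfp541 by 1.25 and Meig1, needed for the manchette, by 1.02. Taf7l (X-linked), Taf4b, Bclaf3 (X-linked), Crebbp and Camk4 fell by 3.26, 2.85, 2.39, 1.99 and 1.37, the first 2 being subunits of the TFIID complex and Crebbp a histone acetyltransferase. Raising values under 5 to 5 left falls of 0.53 for Bclaf3 (adjusted p = 0.424 from limma) and 1.05 for Camk4 (0.0839), neither past the threshold. Crem, the activator of spermatid genes, had 10.64, 10.77 and 11.66 in the later arrays, against 10.30, 9.43 and 10.57 in the earlier arrays, and was not called (0.92, adjusted p = 0.172, and 0.014 when paired), with another of its 3 probe sets, a dimmer one, at a rise of 1.07 (adjusted p = 0.0433), and Rfx2, the factor of ciliary genes, had 11.29, 11.61 and 11.71 in the later arrays, against 8.89, 10.51 and 11.16 in the earlier arrays (1.35, adjusted p = 0.135, and 0.053 when paired). Among 24 piRNA pathway genes Mybl1 rose, and Btbd18 and Mov10l1 fell by 3.41 and 1.63. Piwil1, the PIWI protein of pachytene cells, had 14.13, 13.52 and 13.31 in the later arrays, against 11.00, 13.59 and 13.68 in the earlier arrays, where the early-pachytene array alone was low. Among 34 genes of translational control 3 fell and 1 rose. Cpeb1, of cytoplasmic polyadenylation, fell by 3.76, Dazl by 2.86 and the poly(A) polymerase gene Tent2 by 1.62, and Eif4e2, a cap-binding repressor, rose by 1.16 with 1 of its 4 probe sets called. Dazl, an RNA-binding protein of germ cells, had 11.43, 10.47 and 9.72 in the later arrays, against 13.87, 13.36 and 12.97 in the earlier arrays.

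Of 14 tested spermatogonia markers 11 fell and 0 rose (median -3.63). Zbtb16, the factor PLZF of undifferentiated cells, had 6.40, 4.37 and 3.52 in the later arrays, against 7.94, 9.83 and 9.43 in the earlier arrays (fall of 4.30, SE 0.81, adjusted p = 0.016). Kit, the receptor of differentiating spermatogonia, had 5.90, 4.81 and 5.18 in the later arrays, against 9.77, 8.68 and 9.03 in the earlier arrays (fall of 3.86, SE 0.43, adjusted p = 0.0106). Id4 was the one marker with a difference above 0, and had 12.18, 11.41 and 12.26 in the later arrays, against 9.51, 11.60 and 12.65 in the earlier arrays. In leptotene-zygotene cells Kit averaged 11.58 and Zbtb16 10.24, above all 6 arrays.

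Zfp genes, a set of zinc finger genes taken by name, had 31 of 191 tested genes higher (16.2%) and 16 lower (8.38%), with a median of 0.56. Zfp78 had 6.40, 7.37 and 7.27 in the later arrays, against 3.15, 4.69 and 3.90 in the earlier arrays, a rise of 3.10 (SE 0.48, adjusted p = 0.0113), and Zfp54 and Zfp423 rose by 2.78 and 2.25. The largest fall among them was of Zfp292, by 3.32. By their medians, metabolic families leaned the other way or stayed near 0. Of 45 cytosolic ribosomal protein genes 5 fell (11.1%) and 1 rose, with a median of -0.68 and 38 of 45 below 0. Rpsa and Rpl22 fell by 1.70 and 1.58 and Rps25 rose by 1.26. Of 84 oxidative phosphorylation genes 7 fell (8.33%) and 1, Ndufa4l2, rose (median -0.04). Both shares of falls were under the 13.8% of all genes. Of 76 mitochondrial ribosomal protein genes 0 were called by limma (median -0.01), with 16 whose arrays did not overlap. In the paired fit 18 of them (23.7%) were lower and 1 higher, near the 25.1% of all genes that were lower. Of the cytosolic ribosomal protein genes 23 of 45 (51.1%) were lower and 1 higher when paired. Of 23 glycolytic genes 6 fell (26.1%, against 13.8% of all genes), among them the somatic forms Aldoc by 2.89, Hk2 by 2.61 and Pkm by 2.28. The sperm form Gapdhs, given above, also fell. Ldhc, the lactate dehydrogenase of germ cells, was not called, with 15.42, 15.34 and 15.43 in the later arrays, against 14.37, 14.97 and 14.86 in the earlier arrays (0.67, adjusted p = 0.151 from limma). Among genes named above as called, Anapc4, Cdc25c, Chek1, Crebbp, Mcm4, Mcm6, Prdx4, Rpl22 and Stag2 had 1 probe set called of 2 or 3 tested, and Rnf144b, Kif3b, Zbtb16 and Ccnd2 had 2 to 4 called of 3 to 6.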

How the data were processed

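The authors deposited a linear signal intensity for each of 45037 probe sets (0 of them controls), which they had computed by GC-RMA in GeneSpring from Affymetrix MOE430 version 2 arrays, with no version of GC-RMA stated in the sources. Median signal per array was 11.3 to 12.2 in the 6 arrays, and the number of arrays limits the precision. Fractions came from the labels, and projects from matching signals to the study's supplementary columns. Signals were taken to log2 and limma 3.58.1 in R 4.3.3 compared 3 with 3 arrays (4 residual and 3.2 prior degrees of freedom, two-sided, Benjamini-Hochberg over 18649 probe sets with log2 of 5 or more in 2 or more arrays). Steps between fractions came from 1 fit of 8 fractions over 20 arrays (12 residual degrees of freedom). Arrays are independent biological samples by the study's description, each a pool of sorts from several mice, and each side joins 2 fractions, so that the spread includes stage. Replicate numbers pair mid-pachytene and diplotene arrays, which share projects and whose deviations from their fraction means correlated at 0.75. Alternatives were median centring, quantile normalization, no or a stricter filter (log2 of 7), a floor at 5, fits over 20 arrays, blocks by fraction, replicate and project, a variance trend, and leaving out each array; centring on all probe sets and the alternatives for the steps were added after seeing the data.

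Genes were named by a rule: the 15 largest rises and falls, and 5 on chromosome X, among calls of a single gene with no overlap of arrays; up to 6 called and 2 uncalled members of each list; and genes the study names. Further genes are given for their role or, where so stated, after their values were seen. A gene's list value is its probe set of highest mean; gene names and chromosomes came from the platform annotation and RefSeq (GRCm38.p6). The comparison and lists were chosen with earlier results of these data known. Lists matched by name were corrected once after seeing members, leaving kinases and assembly factors out of ribosomal proteins and proteasome. The fit was tested on simulated data. Figures used Python 3.11.15, pandas 2.3.3, numpy 2.4.6 and matplotlib 3.10.9.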

Additional observations from a re-analysis of the deposited data

How the results depend on the processing

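Against 3769 calls (39.4% of them higher), no filter on low values gave 2223 of 45037 tested (50.1% higher), the fits over all 20 arrays 6820 with arrays of a pool weighted equally and 6870 with fractions weighted equally (49.0% and 52.1% higher), and the array project as a block 9638 (54.0% higher). With replicate block, for diplotene minus mid-pachytene over the 4 paired arrays, 7999 passed, and without the block the same 4 arrays gave 0, with 5428 at an unadjusted p under 0.05 from limma. Leaving out each array gave 0 to 3378 calls. Median centring gave 47.9% higher, quantile normalization 45.3% and a floor at 5 43.6%. The X-linked median of -2.27 was -1.43 with the floor and -2.68 to -1.99 without single arrays, and -2.04 with the replicate block. Of the steps, mid-pachytene minus early-pachytene (494) gave 151 to 524 without single arrays; late-pachytene minus mid-pachytene (1127) gave 507 with the project block and 393 to 1251 without single arrays; diplotene minus late-pachytene (3) gave 43 and 0 to 75; diplotene minus mid-pachytene (4367) gave 6866 and 2078 to 3639. Of 167 named probe sets that were called, 82 passed with no filter, 155 with the floor, 149 with fraction as a random block, 167 with the replicate block and 166 with the project block (Tekt5 did not), and 0 changed direction in any alternative run. With the replicate block the genes that were lower numbered 6 of 14 for the synaptonemal complex and axis, 4 of 18 for breaks, 6 of 16 for crossovers, 8 of 23 for damage signaling, 5 of 24 for piRNA, 6 of 34 for translational control, 9 of 18 for protamines, 5 of 29 for the kinetochore, 5 of 17 for the anaphase-promoting complex, 2 of 8 for condensin, 16 of 84 for oxidative phosphorylation and 30 of 191 for Zfp genes, and those that were higher 4 of 27 for M-phase regulators, 3 of 18 for breaks, 3 of 16 for crossovers, 4 of 24 for piRNA, 6 of 34 for translational control, 5 of 11 for retrogenes, 4 of 26 for intraflagellar transport and 53 of 191 for Zfp genes, where 25.1% of all genes were lower and 20.3% higher. Replication genes that fell numbered 11, and 2 without early-pachytene replicate 1 or mid-pachytene replicate 1, 3 with no filter and 16 with the project block; radial spoke and central pair genes that rose numbered 8, and 2, 0 and 2 without the early-pachytene, mid-pachytene replicate 1 and late-pachytene arrays. X-linked falls numbered 210, 78 and 60 without early-pachytene replicate 1 and mid-pachytene replicate 1, and 61 with no filter. Signals near background carry little information, and 44.5% of the probe sets called lower had a mean under 5 in the later arrays.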

Other observations

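Genes with no established name were frequent among the rises. Of 580 tested genes with a RIKEN clone or Gm symbol, 158 were higher and 19 lower in the later arrays, with a median difference of 0.82. Among tested probe sets of a single gene such symbols made up 4.14%, against 14% of those called higher and 1.11% of those called lower. Coiled-coil domain genes named Ccdc had 22 of 92 higher and 4 lower, tetratricopeptide repeat genes named Ttc 11 of 35 higher and 3 lower, and cilia and flagella associated genes named Cfap 9 of 24 higher and 0 lower. In the other direction, genes named Polr, of the RNA polymerases, had 0 of 24 higher and 5 lower, and Klf genes, of a zinc finger transcription factor family, 0 of 9 higher and 4 lower. These name groups were picked after the values were seen and were given no test.

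Changes among abundant transcripts were smaller for rises than for falls. With a mean log2 signal of at least 11 in the later arrays 174 probe sets rose, and with one of at least 11 in the earlier arrays 137 fell. The largest rises were of Cdh2, the adhesion molecule N-cadherin, with 11.09, 11.38 and 10.92 in the later arrays, against 8.04, 9.71 and 9.57 in the earlier arrays, then of Ccdc89 by 2.01, of Gpr62 and Fam227b by 1.97 each, and of Phf2, a histone demethylase, by 1.94. Nnt, the mitochondrial transhydrogenase, rose by 1.92, and Ccdc40, needed for the spacing of the axoneme, by 1.81. The largest falls beside Cdt1 were of Crabp1, which binds retinoic acid in the cytoplasm, with 8.74, 7.59 and 5.55 in the later arrays, against 12.61, 11.35 and 10.30 in the earlier arrays, of Ppp1ca, a catalytic subunit of protein phosphatase 1, by 4.09, of Marcksl1 by 4.06 and of the X-linked deacetylase gene Hdac6 by 4.05. Uba1y, the Y-linked ubiquitin-activating enzyme, fell by 3.63, and 3 of 6 tested Y-linked probe sets were called lower and 0 higher. The level of 11 was chosen after seeing the data.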
